A study of Homo sapiens with 4 samples.

Results

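The 39 genes described here carry glucose into the cell, break it down to pyruvate, set how much pyruvate enters the mitochondrion, or belong to the hypoxia system that controls many of these genes. They were taken as a named list of glucose transporter, glycolysis, pyruvate and hypoxia genes, by matching Entrez gene identifiers to official symbols, with a gene missing from a library set to 0. Their measured values played no part in that match, but the list was chosen with earlier results of these data known. In total, 39 of the 16813 genes listed in any library were members, and 38 of the 13148 genes that passed a filter on low counts. The member left out by the filter was CA12, a membrane carbonic anhydrase.

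Bulk RNA sequencing was performed on 2 human cell lines with 2 biological replicates of each, 4 libraries in all. PC9 is an EGFR-mutant lung adenocarcinoma line and served as the control. PC9OR is a derivative of PC9 that is resistant to osimertinib, an inhibitor of mutant EGFR. Both lines carried the genotype label WT and were grown in RPMI medium with fetal bovine serum, and whether osimertinib was present in the medium of PC9OR cells when RNA was taken is not given in the sources used here. Resistance was therefore represented by 1 derived line, so that a difference between PC9OR and PC9 cells cannot be told apart from other differences between these lines. Because whole cultures were sequenced, fewer cells of a kind and less RNA per cell cannot be told apart either.

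The deposited expected counts, which are estimated numbers of reads per gene, summed to 23201307 and 29062064 for PC9 replicates 1 and 2. They summed to 31948974 and 32203998 for PC9OR replicates 1 and 2. A count of 3, taken as the lowest level that can be told from 0, corresponded to between 0.0936 and 0.128 CPM (counts scaled to the normalized library size), a limit that covers counting error only. The PC9 replicates differed more from each other than the PC9OR replicates did, and the biological coefficients of variation were 0.242 and 0.104. Nothing in the sources beyond the label says how the replicate cultures were made, so the p-values measure the spread between these samples.

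The lines were checked against markers of lung epithelium and of other cells. Of 10 epithelial and lung adenocarcinoma markers, 7 passed the filter, with 4 higher and 2 lower in PC9OR cells, and the list summed to 2579 and 2989 FPKM (fragments scaled to transcript length and to library size) in the PC9 libraries and 5720.4 and 5511 FPKM in the PC9OR libraries. KRT18 was the most abundant of them. NKX2-1, a lung lineage factor, and NAPSA, a protease of lung epithelium, were at or near 0 in both lines. The 8 fibroblast markers summed to between 0.21 and 0.29 FPKM per library. The 8 leukocyte markers summed to 7.33 and 5.77 FPKM in PC9 and 2.97 and 2.76 FPKM in PC9OR libraries, mostly CD68, while PTPRC was at 0 in 3 of the 4 libraries. The 5 endothelial markers summed to 6.51 and 4.10 FPKM in PC9 libraries and to 0.88 FPKM in either PC9OR library, mostly CDH5, while VWF was at 0 in 3 libraries. The fibroblast markers, PTPRC and VWF were thus at or near 0 in both lines. In the leukocyte list and in the endothelial list 1 gene each was called, more than 2-fold lower in PC9OR cells. Whether the shifts in epithelial, leukocyte and endothelial markers had a part in the results was not tested.

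Glucose enters cells through facilitative transporters of the SLC2A family and is trapped by hexokinase, after which glycolysis splits it and yields pyruvate. The step catalysed by phosphofructokinase is the main point of control and is switched on by fructose 2,6-bisphosphate, and the pyruvate dehydrogenase complex, held in check by its kinases, decides how much pyruvate is oxidized. When oxygen is short, prolyl hydroxylases of the EGLN family stop marking HIF1A for destruction, and HIF1A then switches on transporters, glycolytic enzymes, CA9 and BNIP3. Many carcinoma cells run glycolysis at a high rate even with oxygen present.

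The comparison of PC9OR with PC9 cells asked which of these genes differed in the resistant line. CA9, a membrane carbonic anhydrase, was 7.36-fold higher in PC9OR cells, SLC2A3 (GLUT3), a transporter with high affinity for glucose, was 3.50-fold higher, BNIP3, a mitochondrial protein that promotes mitophagy, was 2.33-fold higher, and PDHB, the beta subunit of the first enzyme of the pyruvate dehydrogenase complex, was 2.06-fold higher. SLC2A6 (GLUT6) was 3.30-fold lower and HK2, the inducible hexokinase, was 2.62-fold lower. SLC2A12, PFKL, PKM and NDRG1 rose by less than 2-fold in this fit, and SLC2A1, PFKFB3, PDP1 and PDK3 fell by less than 2-fold. The other 24 tested members did not pass the test, among them HIF1A itself and most enzymes of the glycolytic backbone.

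By the quasi-likelihood test of edgeR, with p-values adjusted by the Benjamini-Hochberg method over the 13148 genes, 8 of 38 members (21.1%) were higher in PC9OR cells at an adjusted p under 0.05, beside 15.6% of all genes tested. A further 6 members (15.8%) were lower, beside 20.8% of all genes. With a change of more than 2-fold added, 4 members were higher, beside 6.13% of all genes, and 2 were lower, beside 11.6%. Both PC9OR libraries lay above both PC9 libraries for 19 members and below them for 13, where 39.6% and 38.2% of all genes did so. The median log2 fold change was 0.17 over the tested members and 0.01 over all genes. The shares of members called were thus near those of all genes, and the members did not move as one group.

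The adjusted p of the 14 members called ranged from 0.00344 to 0.0261 by edgeR's test. The study used, with DEGseq, a threshold of more than 2-fold change with an adjusted p under 0.001. At it, 0 members and 0 of all genes were called by edgeR's test. The smallest adjusted p of any gene was 0.00155 by edgeR's test, so no gene could pass. By DESeq2's Wald test 4 members were more than 2-fold higher and 2 lower, with adjusted p from 3.8e-23 (SLC2A3) to 2.2e-05 (PDHB). An MA-plot-based model on pooled replicates, which ignores the spread between replicates, called 5 members over 2-fold higher and 2 lower. All of these also had an adjusted p under 0.001 in that model. By edgeR's test 967 genes were higher by over 2-fold, and 1718 lower, at a p under 0.05 before adjustment. Without PC9 replicate 2, 17 members were higher and 10 lower, beside 3932 and 3929 of all genes. Without PC9 replicate 1 the counts were 12 and 9 members, beside 2833 and 3110.0 genes. Without PC9OR replicate 1 they were 4 and 2 members, beside 525 and 1177 genes, and without PC9OR replicate 2 they were 3 and 2 members, beside 527 and 1191 genes. The counts of members thus rose and fell with those of all genes. CA9, SLC2A3, BNIP3, SLC2A6 and HK2 were the 5 members called in the same direction under each of the 15 other settings of the fit.

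**Figure D1:**
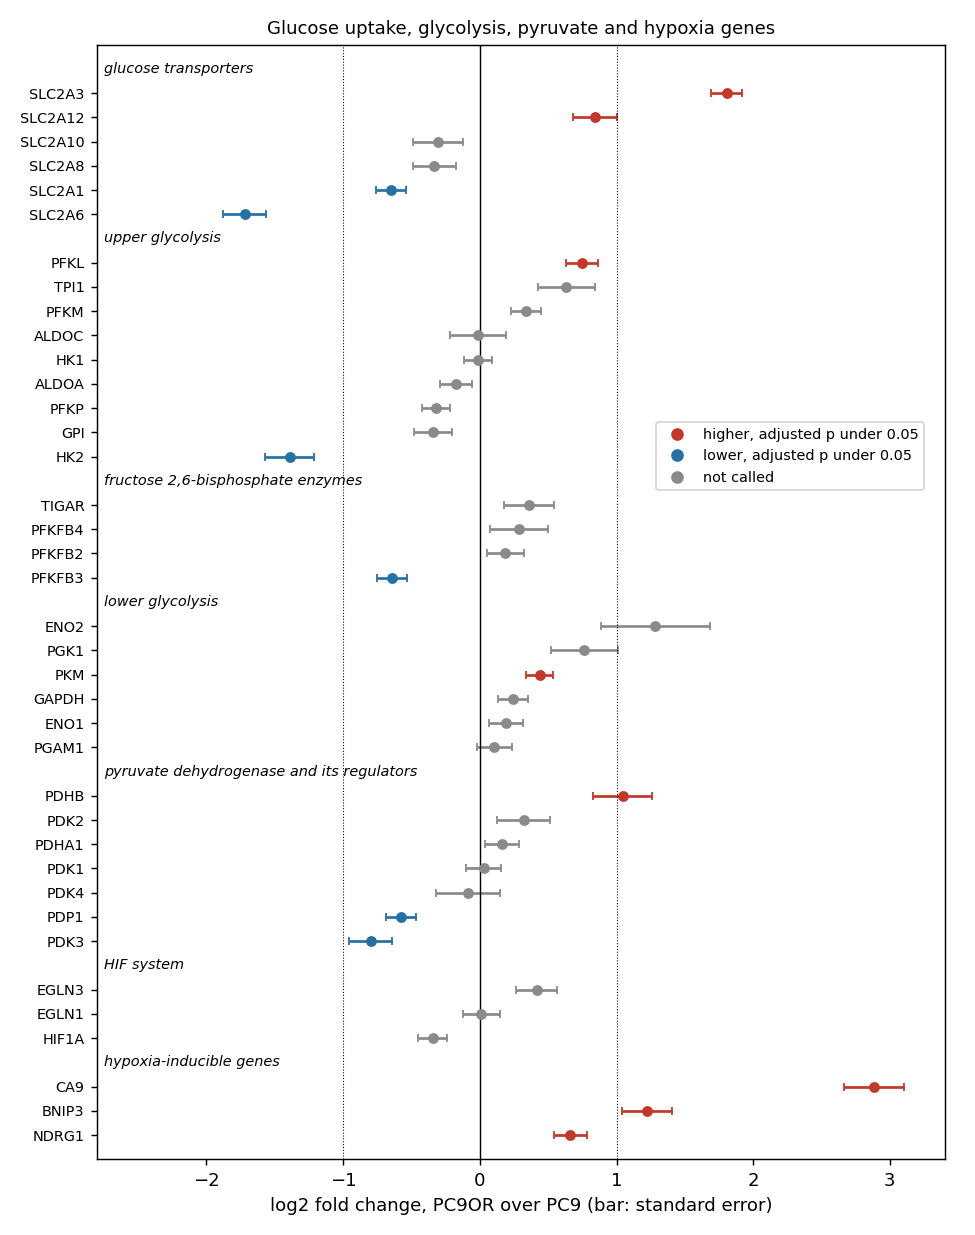
Log2 fold change of PC9OR over PC9 cells (x axis) for each of the 38 tested members, ordered by role (y axis), with a bar of 1 standard error on either side and dotted lines at 2-fold change. Red marks members higher and blue members lower at an adjusted p under 0.05, from CA9 at 2.88 to SLC2A6 at -1.72.

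Some differences between libraries went with transcript length across all genes. Whether this had a part in the changes of the members was not tested. Between the 2 PC9 libraries, the log2 difference followed transcript length, with a rank correlation of -0.474 over 11093 genes, which are not independent, whereas between the PC9OR libraries it was 0.000825. Between the lines it was -0.413, and against PC9 replicate 2 alone it was -0.335. The median log2 fold change of all genes was 0.48 for transcripts under 1500 bases and -0.43 for those of 5000 bases or more. The members did not follow this trend one by one. Between PC9 replicate 2 and PC9 replicate 1, the short transcripts of TPI1 and PDHB differed by 0.58 and 0.59 on the log2 scale and the long HK2 transcript by -0.41, but the short ALDOA transcript differed by -0.14 and the long transcripts of TIGAR and EGLN1 by 0.40 and 0.27. With offsets for transcript length in the fit, 12 members were higher and 5 lower, beside 2654 and 2462 of all genes, so that the balance over all genes moved the same way.

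**Figure D2:**
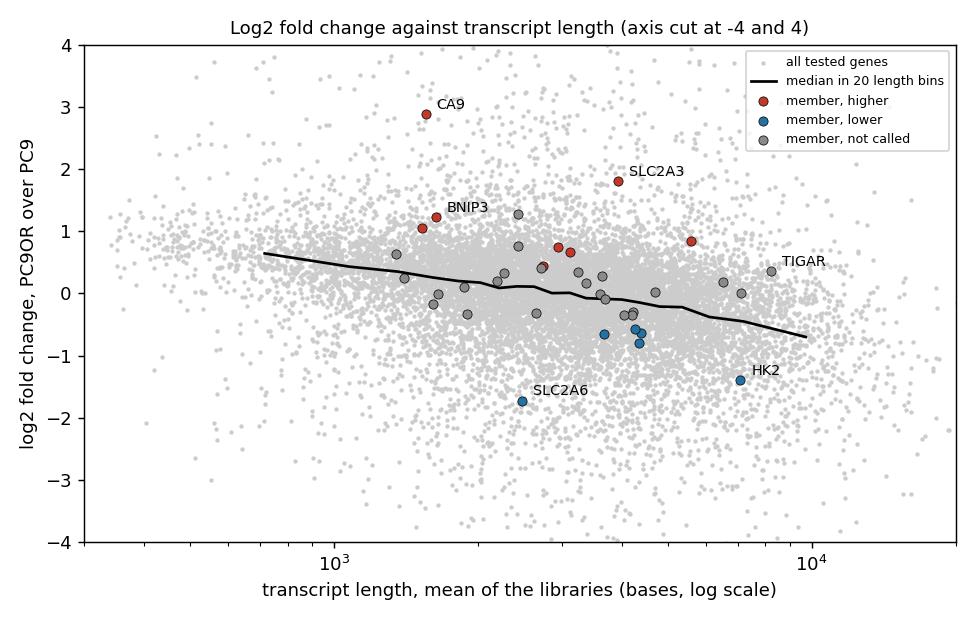
Log2 fold change of PC9OR over PC9 cells (y axis, drawn from -4 to 4) against transcript length in bases (x axis, log scale) for all tested genes in light grey, with the running median in black and members as larger points. CA9 and SLC2A3 stand far above the median line at their length and SLC2A6 far below it, whereas HK2, at 7093 bases, lies in the range where the line itself is below 0.

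The letters ACGTG and GCGTG form the core of the hypoxia response element, the site that HIF complexes bind. They were searched for on both strands, so that CACGT and CACGC also count, in windows from 250 bases before to 50 bases after gene starts (RefSeq, GRCh38.p14 table, placed on GRCh37 by their single exact match). ACGTG is also part of CACGTG, the E-box bound by MYC and related factors, and a CACGTG counts as 2 matches because it holds the letters on both strands. Entries existed for 35 of the 39 members, with 59 windows, and not for SLC2A3, PFKFB2, PDP1 and NDRG1. A match was present in 37 of the 59 member windows (62.7%) and in 48.4% of all 35116 windows. ACGTG itself was present in 40.7% of member windows and in 21.4% of all windows, and CACGTG in 13.6% and 7.26%. Such a match describes the letters and not a site in use, and HIF binding was not measured here. The windows of the members that changed more than 2-fold, except SLC2A3, are shown, from 5′ to 3′ along the gene with matches in capitals, because CA9, BNIP3 and HK2 are known HIF targets yet did not move the same way. CA9 lies on the plus strand at chr9:35673675-35673974. BNIP3 lies on the minus strand at chr10:133795378-133795677. PDHB lies on the minus strand at chr3:58419510-58419809. HK2 has a pair of starts on the plus strand, at chr2:75061004-75061303 and chr2:75062047-75062346. SLC2A6 lies on the minus strand at chr9:136344172-136344471. The final 50 bases of each window fall in the first exon of the transcript that starts there.
CA9: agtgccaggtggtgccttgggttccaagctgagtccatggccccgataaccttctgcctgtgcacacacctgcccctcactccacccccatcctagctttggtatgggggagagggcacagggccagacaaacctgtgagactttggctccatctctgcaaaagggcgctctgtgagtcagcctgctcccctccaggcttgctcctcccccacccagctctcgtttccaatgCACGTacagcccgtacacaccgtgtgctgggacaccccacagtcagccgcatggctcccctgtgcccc
BNIP3: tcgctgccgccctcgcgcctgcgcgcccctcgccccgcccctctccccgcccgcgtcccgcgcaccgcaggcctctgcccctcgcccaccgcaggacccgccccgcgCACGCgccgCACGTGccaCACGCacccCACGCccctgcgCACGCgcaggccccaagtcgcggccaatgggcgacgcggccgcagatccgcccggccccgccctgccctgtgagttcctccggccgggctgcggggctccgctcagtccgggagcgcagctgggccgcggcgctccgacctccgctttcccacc
PDHB: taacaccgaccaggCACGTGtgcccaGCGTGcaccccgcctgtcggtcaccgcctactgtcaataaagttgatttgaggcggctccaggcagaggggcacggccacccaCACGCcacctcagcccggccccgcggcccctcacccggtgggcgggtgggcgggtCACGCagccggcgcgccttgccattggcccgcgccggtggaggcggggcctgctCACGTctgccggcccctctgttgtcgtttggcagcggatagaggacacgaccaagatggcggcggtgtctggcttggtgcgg
HK2 (upstream start): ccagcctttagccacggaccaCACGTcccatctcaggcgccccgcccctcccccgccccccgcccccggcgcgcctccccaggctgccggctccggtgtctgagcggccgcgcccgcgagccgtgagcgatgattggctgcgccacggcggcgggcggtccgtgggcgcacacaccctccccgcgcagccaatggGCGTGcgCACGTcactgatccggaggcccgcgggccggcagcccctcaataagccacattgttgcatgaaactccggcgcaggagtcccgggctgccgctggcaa
HK2 (downstream start): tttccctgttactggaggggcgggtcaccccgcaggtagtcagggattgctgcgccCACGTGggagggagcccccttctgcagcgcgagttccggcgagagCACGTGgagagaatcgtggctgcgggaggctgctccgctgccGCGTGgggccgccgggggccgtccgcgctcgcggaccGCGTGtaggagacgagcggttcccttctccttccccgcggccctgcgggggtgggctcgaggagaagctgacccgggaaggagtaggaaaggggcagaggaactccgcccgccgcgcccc
SLC2A6: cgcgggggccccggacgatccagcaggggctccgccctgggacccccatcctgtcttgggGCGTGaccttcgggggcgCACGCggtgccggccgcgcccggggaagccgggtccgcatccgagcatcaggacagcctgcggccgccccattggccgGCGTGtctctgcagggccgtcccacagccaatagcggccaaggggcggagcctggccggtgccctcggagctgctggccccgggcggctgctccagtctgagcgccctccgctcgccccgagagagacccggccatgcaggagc
The CA9 window held 1 match, 18 bases before the gene start. The BNIP3 window held 6, between 143 and 104 bases before the start, and the PDHB window also held 6. The HK2 windows held 3 and 6, and the SLC2A6 window held 3, none of them ACGTG. Genes that rose and genes that fell both carried the letters.

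Glucose transporters were the family that changed most in its makeup. SLC2A3 (chr12:8071826-8171603, minus strand) was present at 19.2 and 18.2 CPM in PC9 replicates 1 and 2 and at 65.1 and 65.7 CPM in PC9OR replicates 1 and 2. The libraries of each line lay close together, and the lines did not overlap. The log2 fold change was 1.81 ± 0.11 (SE), with an adjusted p of 0.00344 by edgeR's test and at most 0.00527 under the other settings. It was 1.99 with offsets for transcript length and between 1.75 and 1.84 when a library was left out. SLC2A14, a near copy of SLC2A3 on the same chromosome arm, and pseudogenes shared 14.4% of the 50-base words of the SLC2A3 transcripts, so that a part of its reads could have come from or gone to them.

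SLC2A1 (GLUT1, chr1:43391024-43424564, minus strand), the main basal transporter, was the most abundant member of the family. Its level was 225 and 244 CPM in the PC9 libraries and 155 and 143 CPM in the PC9OR libraries. Both PC9OR libraries were lower, and the log2 fold change was -0.65 ± 0.11 (edgeR adjusted p = 0.0145). The call was lost when either PC9OR library was left out, with an adjusted p of at most 0.20 over the other settings. SLC2A6 (chr9:136336216-136344249, minus strand), a transporter of intracellular membranes, was at 24.5 and 25.9 CPM in PC9 and 8.18 and 7.10 CPM in PC9OR libraries. The gap between the lines was far wider than the gap between replicates, with a log2 fold change of -1.72 ± 0.16 (edgeR adjusted p = 0.00533).

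SLC2A12 (GLUT12) rose, with a log2 fold change of 0.84 ± 0.16 (edgeR adjusted p = 0.0181), and its call was lost without either PC9OR library. With offsets for transcript length it was 1.19, more than 2-fold (edgeR adjusted p = 0.00521). SLC2A8 and SLC2A10, both scarce, had log2 fold changes of -0.33 and -0.30 and did not pass the test. Of the summed FPKM of the 6 member transporters, SLC2A1 made up 70.3% ± 1.3 (SD, n = 2) in PC9 and 56.7% ± 1.4 in PC9OR cells. SLC2A3 made up 5.23% ± 0.40 and 23.2% ± 0.82, and SLC2A6 made up 11.3% ± 0.094 and 4.46% ± 0.25. SLC2A3 thus moved from the fourth to the second most abundant of these transporters while the sum itself was 65.4 ± 1.5 FPKM in PC9 and 50.5 ± 2.1 FPKM in PC9OR cells.

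**Figure D3:**
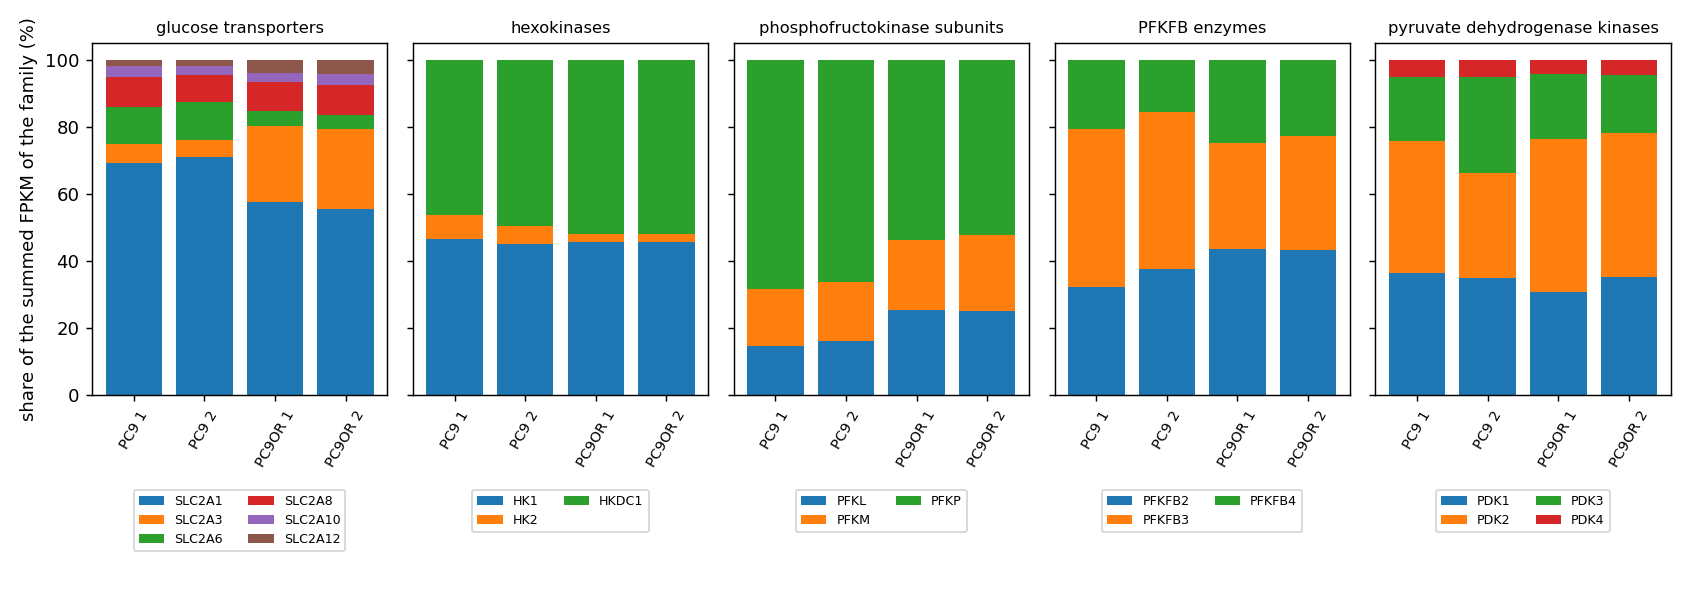
Share of the summed FPKM of each family (y axis, percent) held by each member in the 4 libraries (x axis), for the 6 member glucose transporters, the hexokinases (HK1 and HK2 with HKDC1, which is not a member), the phosphofructokinase subunits, PFKFB enzymes and pyruvate dehydrogenase kinases. SLC2A3 holds under 6% of the transporter sum in the PC9 libraries and over 22% in the PC9OR libraries, and HK2 holds 7.13% and 5.26% of the hexokinase sum in the PC9 libraries and 2.22% and 2.51% in the PC9OR libraries.

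The genes around SLC2A3 did not follow it. The 10 tested genes on each side had a median log2 fold change of 0.12, between -2.14 and 0.99, with 1 higher and 3 lower by the same test. Other members lie on the same chromosome arm: TIGAR, GAPDH, TPI1 and ENO2 had log2 fold changes of 0.36, 0.24, 0.63 and 1.28, and none of these 4 was called. Over all genes tested, 15.6% were higher and 20.8% lower. Around HK2, 8 of the 20 tested genes, 10 on each side, were higher and 1 was lower, while HK2 itself fell. That window ran from -0.362 to 10.5 Mb from the HK2 start. Around CA9, 2 of 20 neighbours were higher and 2 lower, and the same counts held around PDHB. Around SLC2A6, 4 were higher and 5 lower. Around BNIP3, which rose, 7 of 20 were higher and 3 lower. Around SLC2A1, which fell, 1 was higher and 8 lower.

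**Figure D4:**
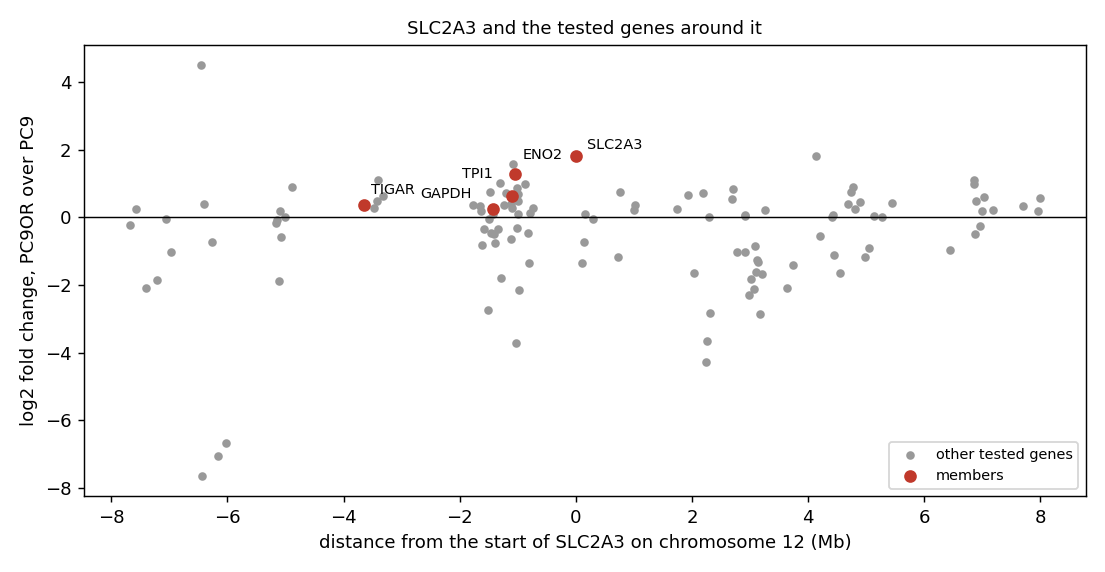
Log2 fold change of PC9OR over PC9 cells (y axis) for tested genes within about 8 Mb of SLC2A3, by distance from its lower coordinate (x axis, Mb). Members are red and other genes grey, and SLC2A3, at 1.81, lies above its nearest neighbours, which reach 0.99 at most.

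In upper glycolysis, which uses ATP to trap and split glucose, 1 of 9 genes was higher and 1 was lower (11.1% each). Over all genes tested, 15.6% were higher and 20.8% lower. HK2 (chr2:75061254-75120486, plus strand) was at 98.1 and 73.7 CPM in the PC9 libraries and at 30.8 and 34.7 CPM in the PC9OR libraries. Both PC9OR libraries were lower, although the PC9 libraries also differed from each other, by 0.41 on the log2 scale. The log2 fold change was -1.39 ± 0.18 (edgeR adjusted p = 0.00866). With offsets for transcript length it was -0.90 (edgeR adjusted p = 0.0054), under 2-fold. The HK2 transcript is 7093 bases long. The pseudogene HK2P1 shared 8.37% of the 50-base words of HK2.

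HK1, the housekeeping hexokinase, was far more abundant per length than HK2, at 63.7 ± 1.5 FPKM in PC9 and 61.6 ± 1.0 FPKM in PC9OR cells against 8.59 ± 1.9 and 3.18 ± 0.23 FPKM for HK2. Its log2 fold change was -0.01 ± 0.10. HKDC1, a hexokinase outside the member list that was added after its values were seen, was at 66.4 ± 2.8 FPKM in PC9 and 69.9 ± 1.2 FPKM in PC9OR cells, and its log2 fold change of 0.11 ± 0.11 did not pass the test. Of the summed FPKM of HK1, HK2 and HKDC1, HK2 made up 6.19% ± 1.3 (SD, n = 2) in PC9 and 2.36% ± 0.20 in PC9OR cells.

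Of the phosphofructokinase subunits, which assemble into the main control enzyme, PFKL (liver type) rose, with a log2 fold change of 0.75 ± 0.12 (edgeR adjusted p = 0.0123). PFKM (muscle type) and PFKP (platelet type) had log2 fold changes of 0.34 ± 0.11 and -0.32 ± 0.10, with adjusted p of 0.0635 and 0.0607 by edgeR's test, so neither passed. PFKM was called with offsets for transcript length (0.44, edgeR adjusted p = 0.0279), and PFKP was called by DESeq2 (adjusted p = 0.0278) and in both limma fits on log2 FPKM (adjusted p = 0.0431 and 0.0448). PFKP nevertheless remained the main subunit, at 67.1% ± 1.5 of the summed FPKM in PC9 and 52.9% ± 0.95 in PC9OR cells, while PFKL made up 15.3% ± 1.0 and 25.4% ± 0.21. The sum over the 3 subunits was 107 ± 1.0 FPKM in PC9 and 106 ± 2.9 FPKM in PC9OR cells. As a share of the summed FPKM of all genes it was lower in both PC9OR libraries, at 0.0345% and 0.0302% in PC9 and 0.0262% and 0.0254% in PC9OR libraries. The call of PFKL was lost without either PC9OR library.

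TPI1 (chr12:6976283-6980112, plus strand), triosephosphate isomerase, was the most abundant gene of this stage by the mean over both lines, although ALDOA was higher in PC9 cells (694 ± 65 against 623 ± 167 FPKM). Its level was 876 and 1308 CPM in the PC9 libraries and 1661 and 1725 CPM in the PC9OR libraries. The PC9 libraries differed from each other by more than PC9 replicate 2 did from the PC9OR libraries, and the log2 fold change of 0.63 ± 0.21 did not pass the test (edgeR adjusted p = 0.0664). It passed with the replicate number as a block (edgeR adjusted p = 0.0144) and by DESeq2 (adjusted p = 0.00851), whereas with offsets for transcript length it was 0.36 and did not pass (edgeR adjusted p = 0.0872). GPI, ALDOA and ALDOC, which convert glucose 6-phosphate and split fructose 1,6-bisphosphate, had log2 fold changes of -0.34, -0.17 and -0.01 and did not pass.

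The enzymes that make or remove fructose 2,6-bisphosphate comprised 3 PFKFB genes and TIGAR. Of these 4, 0 were higher and 1 was lower, where 15.6% and 20.8% of all genes were. PFKFB3 (chr10:6186897-6296607, plus strand), the isoenzyme with the strongest kinase activity, was at 49.5 and 48.5 CPM in PC9 libraries and 31.8 and 30.9 CPM in PC9OR libraries. The PC9OR libraries lay below the PC9 libraries with little spread, at a log2 fold change of -0.64 ± 0.11 (edgeR adjusted p = 0.0137), and the call was lost without either PC9OR library. PFKFB2, PFKFB4 and TIGAR, a phosphatase that lowers fructose 2,6-bisphosphate, had log2 fold changes of 0.19, 0.29 and 0.36 and did not pass. By share of the PFKFB sum, PFKFB3 was first in PC9 cells, at 47.0% ± 0.28, and PFKFB2 was first in PC9OR cells, at 43.5% ± 0.31. For PFKFB2 and TIGAR, with long transcripts, the log2 fold changes were 0.60 and 0.91 with offsets for length (edgeR adjusted p = 0.0458 and 0.0326).

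Lower glycolysis, which yields ATP and pyruvate, held the most abundant member. GAPDH (chr12:6643678-6647540, plus strand), glyceraldehyde 3-phosphate dehydrogenase, was at 4399 and 4822 CPM in the PC9 libraries and at 5657 and 5248 CPM in the PC9OR libraries. Both PC9OR libraries were higher, but the log2 fold change of 0.24 ± 0.11 did not pass the test (edgeR adjusted p = 0.135), and with offsets for transcript length it was -0.03. It ranked between 2 and 6 of all genes by FPKM in the 4 libraries.

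PKM, pyruvate kinase, rose slightly but evenly, with a log2 fold change of 0.44 ± 0.10 (edgeR adjusted p = 0.0261), at 829 ± 2.1 FPKM in PC9 and 1098 ± 14 FPKM in PC9OR cells. Its call was lost with limma on log2(FPKM + 1) and on log2(FPKM + 0.1), at 0.41 in both (adjusted p = 0.25 and 0.242). It was also lost without either PC9OR library, where the log2 fold change stayed at 0.44. PGK1, phosphoglycerate kinase, had a log2 fold change of 0.76 ± 0.24 (edgeR adjusted p = 0.0625) and differed by 0.67 on the log2 scale between the PC9 libraries alone. It was called with offsets for transcript length (0.74, edgeR adjusted p = 0.0479), with the replicate block (edgeR adjusted p = 0.0139) and by DESeq2 (adjusted p = 0.0103). ENO2, the neuronal enolase, had the largest change among members not called, 1.28 ± 0.40 (edgeR adjusted p = 0.058), but lay between 0.832 and 2.75 CPM. It was called with a filter of at least 10 counts in every library and in both limma fits on log2 FPKM. ENO1 made up more than 99% of the enolase sum in each library. PGAM1 and ENO1 had log2 fold changes of 0.11 and 0.19 and did not pass. The 15 genes of the glycolytic enzymes from HK1 to PKM summed to 5834 ± 314 FPKM in PC9 and 6836 ± 290.4 FPKM in PC9OR cells, of which GAPDH held the largest part. The summed FPKM of all genes also differed between libraries, and as a share of it these 15 genes made up 1.82% and 1.70% in the PC9 libraries and 1.70% and 1.62% in the PC9OR libraries, so that no rise remained on that scale.

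The pyruvate dehydrogenase complex turns pyruvate into acetyl-CoA in the mitochondrion. PDHB (chr3:58413357-58419584, minus strand) was at 65.1 and 98.3 CPM in the PC9 libraries and at 163 and 174 CPM in the PC9OR libraries. Both PC9OR libraries were higher, though PC9 replicate 2 lay above PC9 replicate 1 by 0.59 on the log2 scale. The log2 fold change was 1.05 ± 0.21 (edgeR adjusted p = 0.0215), and it was 0.82 with offsets for transcript length (adjusted p = 0.0134) and 0.77 without PC9 replicate 1. Its call was lost without PC9OR replicate 2 (adjusted p = 0.0583). PDHA1, which encodes the alpha subunit of the same enzyme, had a log2 fold change of 0.16 ± 0.13 and did not pass, and the difference between the subunits was not tested.

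Of the kinases that switch the complex off, PDK3 fell, with a log2 fold change of -0.80 ± 0.16 (edgeR adjusted p = 0.0193). Its FPKM values, which are divided by transcript length, overlapped between the lines. The deposited length of PDK3 was 6377 and 4135 bases in PC9 libraries and 3386 and 3470 bases in PC9OR libraries. By limma on log2(FPKM + 1) and log2(FPKM + 0.1) the log2 fold change of PDK3 was -0.19 and -0.23. It was called in neither limma fit (adjusted p = 0.418 and 0.411). PDK1 and PDK2, the most abundant of the kinases, and PDK4 had log2 fold changes of 0.03, 0.32 and -0.08 and did not pass. PDP1, the phosphatase that switches the complex on again, fell, with a log2 fold change of -0.58 ± 0.11 (edgeR adjusted p = 0.0187). That call was lost with offsets for transcript length, at -0.36 (adjusted p = 0.0678). Both PDK3 and PDP1 lost their calls without either PC9OR library.

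**Figure D5:**
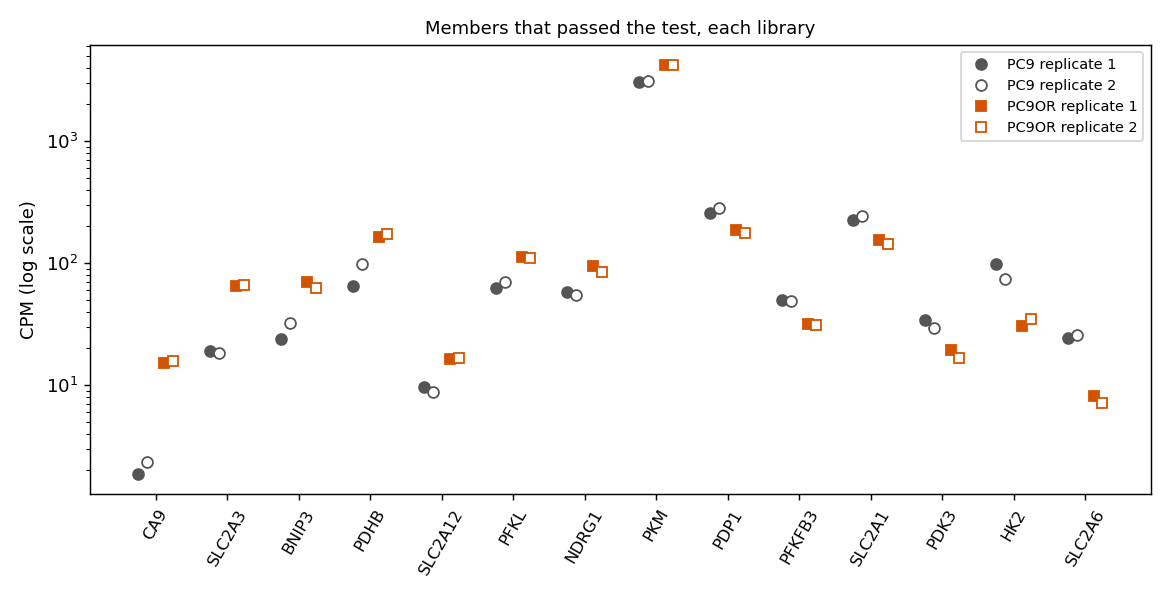
Normalized level (CPM, log scale, y axis) of the 14 members that passed the test (x axis) in each of the 4 libraries, with PC9 as circles and PC9OR as squares, filled for replicate 1 and open for replicate 2. The lines do not overlap for any of the 14 members, which were picked by the test. Of all genes tested, 39.6% lay above and 38.2% below without overlap. The widest gap is that of CA9, from 1.88 and 2.32 to 15.2 and 15.9 CPM.

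In the oxygen-sensing system, none of the 3 members was called, where 15.6% of all genes were higher and 20.8% lower. With only 3 genes, the count cannot be set against those shares. HIF1A (chr14:62162231-62214977, plus strand), the oxygen-regulated subunit of the hypoxia factor, was at 754 and 717 CPM in the PC9 libraries and at 596 and 561 CPM in the PC9OR libraries. Its message was lower in both PC9OR libraries, and the log2 fold change of -0.35 ± 0.11 missed the threshold (edgeR adjusted p = 0.0578) and was -0.15 with offsets for length, while DESeq2 called it (-0.36, adjusted p = 0.0165). HIF1A is mainly controlled through its protein, which was not measured in these libraries. EGLN1 and EGLN3, prolyl hydroxylases of which EGLN3 is itself hypoxia-inducible, had log2 fold changes of 0.01 and 0.42 and did not pass. More than 55% of the 50-base words of EGLN1 were shared with other annotated genes, mostly one that overlaps it. Among members discussed above without this limit, the share was 40.0% for PGAM1, 37.4% for ALDOA, 18.7% for TIGAR and 12.6% for TPI1.

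Of the 4 members grouped here for their induction by hypoxia (CA9, CA12, NDRG1 and BNIP3), 3 were tested and rose, where 15.6% of all genes were higher. With only 3 genes, this count cannot be set against that share either. Other members that hypoxia is known to induce stand with their own roles above. Those named here, which are not a full list, did not move together. Of those named, HK2, SLC2A1 and PFKFB3 fell, SLC2A3 rose, and EGLN3, PDK1, PFKFB4, ALDOA and PGK1 were not called. Of the remaining glycolytic enzymes, PFKL and PKM rose (0.75 and 0.44), and the others, of either sign, were not called. CA9 (chr9:35673925-35681156, plus strand) was at 1.88 and 2.32 CPM in the PC9 libraries and at 15.2 and 15.9 CPM in the PC9OR libraries. These rest on 44 and 67 counts in PC9 and 487 and 507 counts in PC9OR libraries, all well above the limit of 3 counts. The lines were separated by far more than their replicates, with a log2 fold change of 2.88 ± 0.22 (edgeR adjusted p = 0.00448) that stayed between 2.73 and 3.03 when a library was left out. CA9 rose from rank 10693 and 10302 to rank 5904 and 5796 by FPKM among the genes of each library. CA12 had 0 and 3 counts in PC9 and 0 and 1 counts in PC9OR libraries, at or under the limit, so that no change could be measured.

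BNIP3 (chr10:133781188-133795471, minus strand) was at 24.0 and 32.6 CPM in the PC9 libraries and at 69.4 and 62.6 CPM in the PC9OR libraries. The lines did not overlap, although the PC9 libraries differed by 0.44 on the log2 scale. The log2 fold change was 1.22 ± 0.18 (edgeR adjusted p = 0.0111), and 1.03 with offsets for transcript length. Its pseudogene BNIP3P1 shared 12.9% of its 50-base words. NDRG1, a protein of the stress response, rose with a log2 fold change of 0.66 ± 0.12 (edgeR adjusted p = 0.0169), a call that was lost without either PC9OR library.

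Genes of the same pathways outside the member list were counted in 8 lists of 123 genes, of which 100 were tested. Of these, 15 were higher and 16 lower by the same test, beside 15.6% and 20.8% of all genes. The median log2 fold change of the 100 genes was -0.12. Among 29 other hypoxia-inducible genes, 7 were higher and 6 lower, where 15.6% and 20.8% of all genes were. The largest changes there were LOXL2, a collagen cross-linking oxidase (-2.13 ± 0.22), RORA, a nuclear receptor at 18 and 29 counts in the PC9 libraries (1.49 ± 0.36), and VLDLR, a lipoprotein receptor (-1.46 ± 0.23). The call of RORA was lost without PC9 replicate 1, without either PC9OR library and by limma on log2(FPKM + 0.1), where its log2 fold change was 0.70, while offsets for transcript length gave 2.24.

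Among 13 other oxygen-sensing genes, 2 were higher and 4 lower, where 15.6% of all genes were higher and 20.8% lower. The coactivators EP300 and CREBBP, which HIF complexes recruit, had log2 fold changes of -2.37 ± 0.32 and -2.21 ± 0.34, and RBX1, a subunit of the ligase that removes HIF1A, had one of 1.00 ± 0.26. EP300 was at 241 and 128 CPM in PC9 libraries and at 34.3 and 37.0 CPM in PC9OR libraries, so that the PC9 libraries themselves differed widely for this long transcript. With offsets for transcript length the log2 fold changes of EP300 and CREBBP were -1.70 and -1.41. Of 8 glucose-responsive regulators, MLXIP, a glucose-sensing transcription factor, had a log2 fold change of -2.68 ± 0.41, PRKAA2, a catalytic subunit of AMP-activated kinase, one of -0.83 ± 0.11, and TXNIP, an inhibitor of glucose uptake, one of 0.66 ± 0.12. These were the 3 of that list that passed. With offsets for transcript length MLXIP, at 117 and 51.9 CPM in the PC9 libraries, was at -2.03, and PRKAA2 lost its call, at -0.16 (edgeR adjusted p = 0.351).

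The counts of the lists that follow stand beside 15.6% of all genes higher and 20.8% lower. Of 9 other glycolysis isoenzymes and transporters tested, 1 was called, SLC2A11, with a log2 fold change of 2.69 ± 0.23. Around pyruvate entry, MPC1, a subunit of the mitochondrial pyruvate carrier, rose, with a log2 fold change of 1.37 ± 0.17, and the phosphatase PDP2 had a log2 fold change of -0.94 ± 0.15, and these were the 2 of 7 called. In gluconeogenesis and glycogen metabolism, 2 of 14 were higher and 2 lower, among them glycogen phosphorylase PYGL (0.83 ± 0.10), fructose 1,6-bisphosphatase FBP1 (-0.68 ± 0.12) and glycogen synthase GYS1 (-0.67 ± 0.17). RBKS, ribokinase, was the 1 of 12 pentose phosphate genes called (1.37 ± 0.21), and GFPT2, which feeds the hexosamine pathway, was the 1 of 8 called there (-1.49 ± 0.11). Of the genes named from these lists, RBX1, PRKAA2, TXNIP, PDP2, PYGL, FBP1 and GYS1 lost their calls without either PC9OR library, and RBKS without PC9OR replicate 1.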

How the data were processed

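RNA of PC9 and PC9OR cells (2 biological replicates each) was sequenced as stranded libraries. The authors deposited, for every gene with reads, an expected count (not normalized), an FPKM value, in which the count is divided by gene length and depth, and the length itself, averaged over isoforms by their use. Per the study's methods, reads were filtered with SOAP, and the submitters' processing notes name Bowtie2 2.2.5, RSEM 1.2.12 and GRCh37. How RSEM treated strand and reads that match several genes is not given in the sources used here, so shared reads could move counts between near-identical or overlapping genes.

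Deposited expected counts were rounded to whole numbers. They were tested with edgeR 4.0.16 in R 4.3.3 (glmQLFit and glmQLFTest after filterByExpr and TMM scaling), with p-values adjusted over the 13148 genes kept. A member was called at an adjusted p under 0.05, and a change of more than 2-fold was counted separately. The study names DEGseq, which was not installed, and its MA-plot-based model on pooled replicates was rewritten as an alternative. The other alternatives were DESeq2 1.42.0 size factors and Wald test, library totals without TMM, no filter or at least 10 counts in every library, limma 3.58.1 on log2(FPKM + 1) and log2(FPKM + 0.1), the replicate number as a block, offsets for transcript length (smooth curves per library, mgcv 1.9.3), and each library left out in turn.

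Symbols were found for 99.66% of the 16813 genes, and positions (GENCODE lifted to GRCh37) for 97.61%. The members and gene lists were chosen with earlier results of these data known, so no test over a list was made. Values per library are given for members called with more than 2-fold change and for the most abundant member of each role. In the other lists, at most the 3 called genes with the largest changes are named. The scripts were tested on simulated data. Replicates were not paired, since no source states a pairing.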

Additional observations from a re-analysis of the deposited data

How the results depend on the processing

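Of the 38 tested members, 5 (CA9, SLC2A3, BNIP3, SLC2A6 and HK2) kept their call under all 15 alternative fits. Scaling by DESeq2 size factors, scaling without TMM and dropping the filter changed no member's call. The MA-plot-based model, which ignores the spread between replicates, called 21 members higher and 12 lower, 5770.0 and 5708 of all genes, and 44 and 55 genes of the pathway lists. Offsets for transcript length left 1 member more than 2-fold lower, since HK2 fell under 2-fold, and put SLC2A12 in place of PDHB among the 4 more than 2-fold higher, and together with the replicate block they left 1 as well, with 15 members, 24 pathway genes and 3039 of all genes higher. At the study's threshold (adjusted p under 0.001, over 2-fold), 0 members, 0 genes and 0 pathway genes were called by edgeR's test. The smallest adjusted p of any gene by edgeR's test was 0.00155. With a change of more than 2-fold and an adjusted p under 0.05, the MA-plot-based model called 5 members higher and 2 lower. Their adjusted p in that model was at most 6.6e-09 (ENO2), so they also passed the study's threshold there. By DESeq2's Wald test CA9, SLC2A3, BNIP3, PDHB, SLC2A6 and HK2 changed more than 2-fold with an adjusted p under 0.001.

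Leaving out 1 library in turn gave 3 to 17 members higher and 2 to 10 lower, 3 to 5 more than 2-fold higher, 525 to 3932 of all genes higher and 1177 to 3929 lower, and 4 to 29 pathway genes higher and 9 to 30 lower. A lone library of a line was then assumed to vary like the other line. The counts of members higher and of members lower fell without a PC9OR library and rose without a PC9 library. In these fits the spread came from the line that kept both libraries. The biological coefficient of variation was 0.242 in PC9 and 0.104 in PC9OR cells. Whether this had a part in the counts was not tested.

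No source states that same-numbered libraries were paired. Their deviations from the line means had a correlation of 0.0412 across genes, which cannot show whether they shared a culture or a preparation. With the replicate number as a block, no member lost its call and TPI1 and PGK1 gained one.

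Members that changed sign were all without a call in the main fit. EGLN1 was -0.00134 with DESeq2 size factors, -0.00146 with DESeq2's Wald test, -0.00753 in the MA-plot-based model, -0.019 with log2(FPKM + 1) and -0.0214 with log2(FPKM + 0.1), and PDK1 was -0.000604 and -7.74e-05 in these limma fits. With offsets for length, alone and with the block, GAPDH was -0.0347 and -0.0351, HK1 0.137 and 0.138, PDK4 0.0784 and 0.078, and PGAM1 -0.0329 and -0.0314. With 1 library left out, EGLN1 lay between -0.126 and 0.135, PDK1 between -0.0958 and 0.136, PGAM1 between -0.0187 and 0.218, and ALDOC between -0.211 and 0.174. The cause was not tested.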
